A study of Rattus norvegicus with 12 samples.

Results

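The TRP channels of pain and mechanosensing were followed in the rat colon through 10 probes of 9 genes, out of 30367 probes with 26514 distinct gene names on the array. The members were the probes outside the controls whose gene name was Trpa1, Trpv1, Trpv2, Trpv3, Trpv4, Trpv6, Trpm5, Trpm6, Trpm7 or Trpm8. No probe carried the name Trpm6, so that gene was not analysed here, and Trpv1 had 2 probes.

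TRP channels are cation channels of the cell membrane that open to heat, cold, irritants, stretch or products of phospholipase C signalling. In the gut wall, Trpa1, Trpv1 and Trpv4 are known from the endings of sensory neurons, where their opening depolarizes fibres that carry visceral pain, and several of them are also expressed by epithelial, glial and immune cells. Trpv6, Trpm6 and Trpm7 are known as routes for calcium and magnesium, and Trpm5 as the transduction channel of taste and tuft cells.

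Colonic RNA came from 12 male Wistar rats of 200-250 g, taken on postnatal day 60, with 1 array for each rat. Group C (rats C1 to C4) stayed with the dam and received placebo. Group M (M5 to M8) underwent neonatal maternal separation (NMS), 180 min daily from day 2 to day 14, and received placebo. Group D (D9 to D12) underwent the same separation and received VSL#3, a mixture of probiotic bacteria, from day 3 to day 60. Both were given by gavage in 100 µL saline, and the labels and the study's methods state different doses of VSL#3. Every rat of the 3 groups underwent colorectal distension (CRD), so Group C is a control for separation and not for distension. NMS models irritable bowel syndrome through early stress.

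The study compared NMS with healthy rats, VSL#3 with placebo in NMS rats, and VSL#3-treated NMS rats with healthy rats. Its methods analysed 11 arrays without D12, which is how means and tests are given here, and D12 is shown beside them. Groups C and M shared 1 slide, each in an array row of its own, and all of Group D lay on slide 2 with a scan of its own. Slide and Group D cannot be told apart, and neither can array row and the difference of Groups C and M. Colon epithelium markers such as Cdx2 and Vil1 were well above background, with 11 of 11 measured. Rats C2, M6 and D12 stood apart from their groups in markers of T and B cells, as given below. Because the tissue is bulk colon, fewer cells of a type and less RNA per cell cannot be told apart.

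Values are log2 signals relative to the 75th percentile of the array, so that 0 is the level of that percentile, and a difference of 1 is 2-fold. Levels of different probes cannot be compared, since each probe binds with its own strength. A probe counted as well above background on an array by the mark of the scanner software. By that mark 8 of the 10 TRP channel probes were above background on all 12 arrays, the Trpa1 probe on 10 and the Trpm8 probe on none.

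The probes are 60 bases long, and the array files place them on the rn4 build. The Trpa1 probe lay on chromosome 5, bases 3572336 to 3572395 of the plus strand. The 2 Trpv1 probes lay on the plus strand of chromosome 10, at 60134611 to 60134670 and at 60134879 to 60134938, 208 bases apart. The Trpv3 probe followed on the same strand at 60171565 to 60171624, 36.6 kb beyond them, and the Trpv2 probe lay on that chromosome too, at 48786080 to 48786139. The Trpv4 probe lay on chromosome 12 at 43265830 to 43265889, and the Trpm8 probe on chromosome 9 at 87278375 to 87278434, both on the plus strand. On the minus strand lay the probes of Trpv6 (chromosome 4, 69332349 to 69332408), Trpm5 (chromosome 1, 203347437 to 203347496) and Trpm7 (chromosome 3, 114320873 to 114320932). Exons and untranslated regions were not assigned, because no annotation of that build was used.

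The sequences shown are those of 4 of the channels, Trpa1, Trpv1, Trpv2 and Trpv4. The Trpa1 probe and the first Trpv1 probe are given whole, and the others by 30 of their 60 bases. Capitals mark AATAAA, the hexamer of the polyadenylation signal, which began at base 34 of the Trpv4 probe.
Trpa1 probe: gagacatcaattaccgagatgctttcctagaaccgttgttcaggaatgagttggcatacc
Trpv1 probe at 60134611: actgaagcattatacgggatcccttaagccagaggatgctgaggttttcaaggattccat
Trpv2 probe, last 30 bases: tgagttttggtggaaatataaatatttttt
Trpv4 probe, last 30 bases: ctcAATAAAtgtttgtttattctcggtgga
The letters AATAAA stood in 1 of the 10 TRP channel probes, against 8.39% of all 30367 probes. With the other strand read too, 2 of the 10 held it, against 10.96% of all probes.

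Against Group C, Group M showed less Trpa1 and more Trpv2 and Trpv4 RNA, with no overlap between the rats of both groups for these 3 genes. Trpa1, the receptor of pungent electrophiles, was lower in Group M and passed the adjusted threshold. That call held under 5 of 21 alternatives, and Trpa1 was well above background in 2 of 4 rats of Group M. Trpv4, a channel opened by cell swelling and stretch, and Trpv2, a relative of Trpv1 known from sensory neurons and macrophages, were about 2-fold higher but did not pass the adjusted threshold. Trpv1, Trpv6 and Trpm7 had lower means in Group M, with rats that overlapped Group C.

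By limma with Benjamini-Hochberg adjustment over 30348 probes, 1 of the 10 TRP channel probes passed an adjusted p of 0.05 and a 2-fold change between Groups M and C, against 0.168% of all probes. The methods' criterion, which is an unadjusted p of 0.05 in both the analysis of variance and Tukey's test together with a 2-fold change, was met by 3 of 10 probes, Trpv2, Trpv4 and Trpa1, against 2.33% of all probes. The groups did not overlap for these 3 of 10 probes, against 9.25% of all probes. At an unadjusted p of 0.05 by limma, 6 of 10 passed, with Trpv2 and Trpv4 higher and Trpa1, Trpv6, Trpm7 and 1 probe of Trpv1 lower, against 22.7% of all probes. The median difference over the 10 probes was -0.34, beside -0.01 over all probes. The members were chosen with such results known, so these shares are descriptions.

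**Figure D1:**
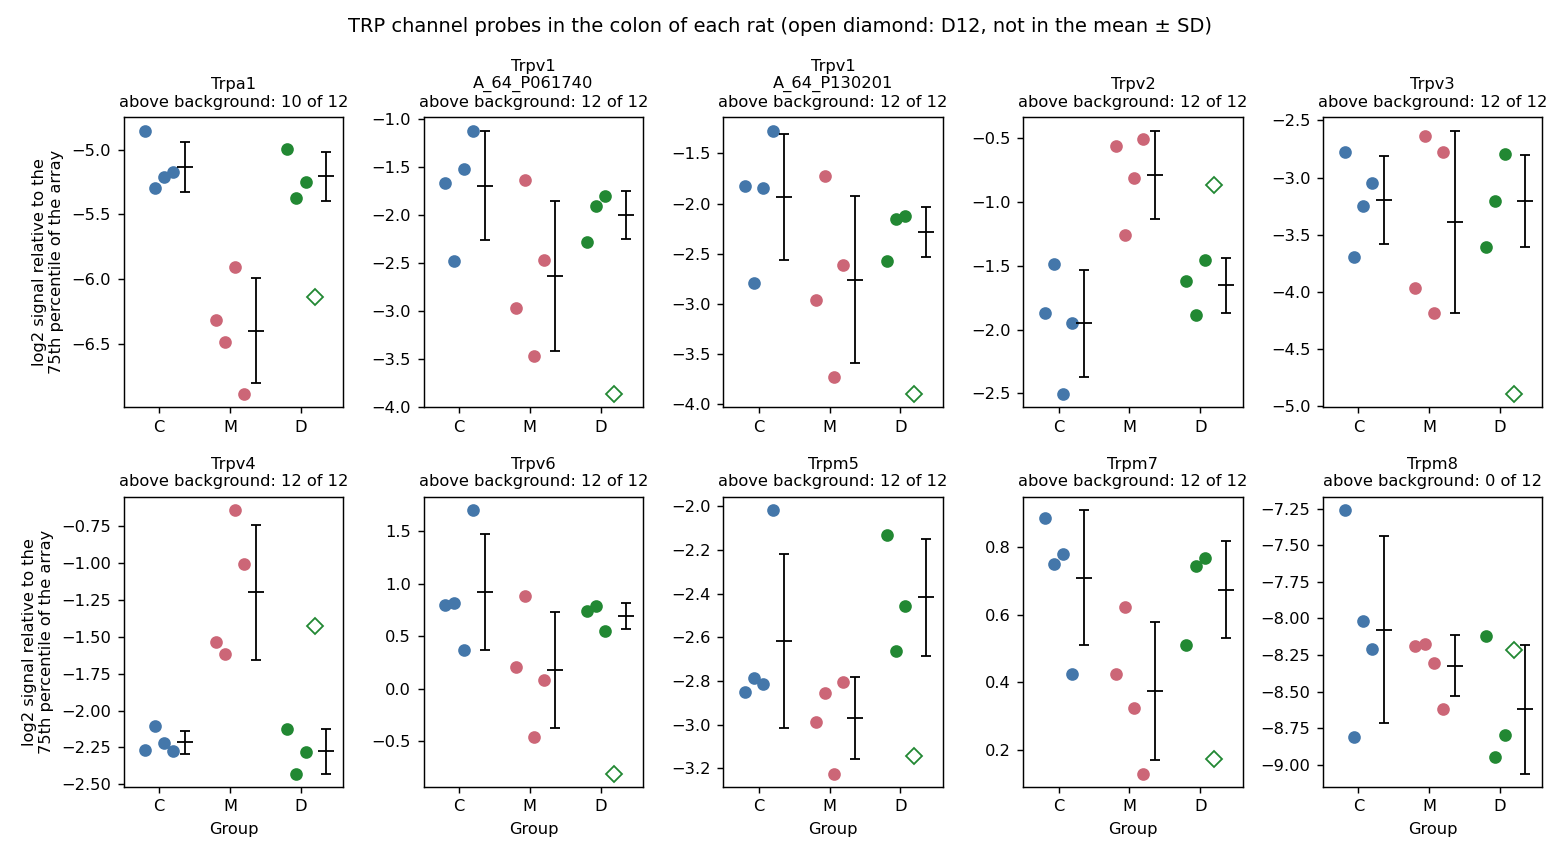
Log2 signal of each TRP channel probe relative to the 75th percentile of the array (y axis, with its own range in each panel) in each rat of Groups C, M and D (x axis). Filled points are single rats, open diamonds are rat D12, and bars show mean ± SD without D12 (n = 4, 4 and 3). The 4 rats of Group M lie below Groups C and D for Trpa1 and above them for Trpv2 and Trpv4, with D12 near Group M.

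Trpa1 stood at -4.85, -5.30, -5.21 and -5.17 in rats C1 to C4. In rats M5 to M8 it stood at -6.31, -6.49, -5.90 and -6.88. All 4 rats of Group M lay below all 4 of Group C. The mean fell by 1.26 on the log2 scale (SE 0.20, 95% interval -1.70 to -0.83, adjusted p = 0.0461 by limma), from -5.13 ± 0.19 to -6.40 ± 0.41 (SD, n = 4 each). Trpa1 was dim, with signals of 39.8 to 61.7 in Group C and of 13.7 to 32.0 in Group M before scaling. It was well above background in M5 and M7 and not in M6 and M8, so the lower level was measured in 2 of 4 rats.

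The direction of Trpa1 was the same under each of 21 alternatives, but the call held under 5 of them. The adjusted p ran from 0.00337 with array weights to 0.152 without rat C1, and was 0.0584 without rat C2 and 0.0127 without rat M6. Under a normexp background correction, which adds an offset of 50 to every signal, the difference was -0.42.

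Trpv4 stood at -2.27, -2.10, -2.22 and -2.27 in Group C. In Group M it stood at -1.53, -1.61, -0.64 and -1.004. Group C varied little (SD 0.08), and each rat of Group M lay above it. The difference was 1.02 (SE 0.20, 95% interval 0.58 to 1.46), with an adjusted p of 0.0844 by limma, and Trpv4 passed the methods' criterion. Without M6 the difference was 1.16 and the adjusted p 0.0108, and without C2 they were 1.06 and 0.0713.

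Trpv2 stood at -1.87, -1.49, -2.50 and -1.95 in Group C. In Group M it stood at -0.56, -1.26, -0.81 and -0.50. The lowest rat of Group M, M6, lay above C2, the highest of Group C. The difference was 1.17 (SE 0.23, 95% interval 0.66 to 1.68, adjusted p = 0.0868 by limma), and Trpv2 also passed the methods' criterion. Without M6 the difference was 1.33 with an adjusted p of 0.0111, and without C2 it was 1.32 with an adjusted p of 0.0595.

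Trpv1, the receptor of capsaicin and noxious heat, stood at -1.67, -2.48, -1.52 and -1.12 in Group C by its brighter probe. In Group M it stood at -2.98, -1.64, -3.47 and -2.47. Rat M6 lay among Group C, and rat C2 lay among Group M. The difference was -0.94 (SE 0.39, 95% interval -1.80 to -0.08, adjusted p = 0.184 by limma). The second Trpv1 probe gave -0.82 (adjusted p = 0.268), and both probes followed each other over the 12 arrays (r = 0.99). Without M6 the brighter probe passed, at -1.28 with an adjusted p of 0.0315, and without C2 it stood at -1.20 with 0.101.

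Trpv6, a calcium-selective channel of absorbing epithelium, stood at 0.80, 0.81, 0.37 and 1.70 in Group C. In Group M it stood at 0.21, 0.88, -0.46 and 0.08. As for Trpv1, rat M6 lay within Group C, while the other 3 rats of Group M lay below every rat of Group C. The difference was -0.75 (95% interval -1.44 to -0.05, adjusted p = 0.193 by limma).

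Of the remaining channels, Trpm7, a channel joined to a kinase that carries magnesium, differed by -0.34 (95% interval -0.64 to -0.03, adjusted p = 0.183). Trpm5, the tuft cell channel, differed by -0.35 (95% interval -0.80 to 0.10, adjusted p = 0.331). Trpv3, a warmth channel of keratinocytes, differed by -0.20 (95% interval -1.02 to 0.63, adjusted p = 0.810), an interval that includes a 2-fold fall. Trpm8, the receptor of cold and menthol, was not well above background in any rat, and no fold is given for it.

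**Figure D2:**
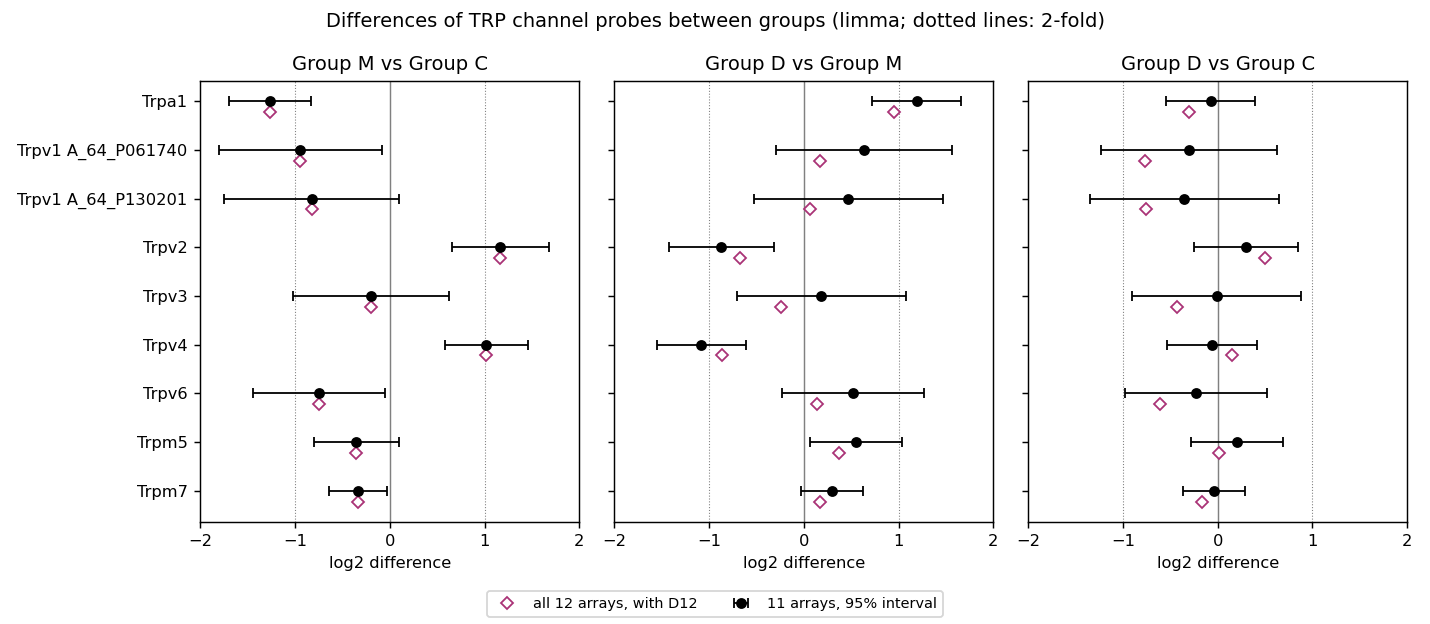
Log2 differences (x axis) of the 9 TRP channel probes above background (y axis) in the 3 comparisons. Black points with 95% intervals come from limma over 11 arrays and open diamonds from all 12 arrays, and dotted lines mark 2-fold. In Group M vs Group C the intervals of Trpa1, Trpv2 and Trpv4 lie furthest from 0, and in Group D vs Group C every interval of the 11 arrays includes 0.

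Between VSL#3 and placebo in NMS rats, the same 3 channels had differences of the opposite sign, with Trpa1 higher and Trpv2 and Trpv4 lower in Group D. Both comparisons share the 4 rats of Group M, so they are not independent. By limma, 0 of the 10 TRP channel probes passed the adjusted threshold, against 0.125% of all probes. At an unadjusted p of 0.05 by limma, Trpa1 and Trpm5 were higher and Trpv2 and Trpv4 lower, which is 4 of 10 probes against 21.6% of all probes. By the methods' criterion Trpa1 was higher and Trpv4 lower, 2 of 10 probes against 2.65% of all probes. Groups D and M did not overlap for 4 of the 10 probes, against 16.0% of all probes.

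In rats D9 to D11, Trpa1 stood at -5.00, -5.37 and -5.25, above every rat of Group M. The difference was 1.19 (SE 0.21, 95% interval 0.72 to 1.66, adjusted p = 0.0650 by limma). Rat D12 stood at -6.14, within the range of Group M. With D12 the difference was 0.96 and the adjusted p 0.211.

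Trpv4 stood at -2.13, -2.43 and -2.28 in rats D9 to D11, below every rat of Group M. The difference was -1.08 (SE 0.21, 95% interval -1.55 to -0.61, adjusted p = 0.0722 by limma). Rat D12 stood at -1.42, again within Group M, and with it the difference was -0.87.

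Trpv2 stood at -1.62, -1.89 and -1.46 in rats D9 to D11, and at -0.87 in D12. The first 3 lay below Group M, and D12 lay within it. The difference was -0.87 (SE 0.25, 95% interval -1.42 to -0.32, adjusted p = 0.110 by limma), and -0.67 with D12.

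Trpm5 stood at -2.13, -2.66 and -2.46 in rats D9 to D11, against -2.99, -2.86, -3.23 and -2.80 in Group M. The 3 rats lay above Group M, and D12, at -3.14, lay within it. The difference was 0.55 (95% interval 0.07 to 1.04, adjusted p = 0.182 by limma).

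For Trpv1 the difference was 0.64 by the brighter probe (95% interval -0.29 to 1.57) and 0.47 by the other. Trpv6 differed by 0.52 (95% interval -0.23 to 1.27), Trpm7 by 0.30 and Trpv3 by 0.18. None of these 4 channels passed an unadjusted p of 0.05. Rat D12 held the lowest value of all 12 rats for Trpv1 (-3.86), Trpv3 (-4.89) and Trpv6 (-0.81).

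Between VSL#3-treated NMS rats and healthy rats, no TRP channel passed any of the criteria. The count was 0 of 10 by limma (0.00659% of all probes), 0 by the methods' criterion (0.366%) and 0 at an unadjusted p of 0.05 by limma (5.99%). Groups D and C overlapped for all 10 probes, while they did not overlap for 7.60% of all probes. Trpa1 differed by -0.07 (95% interval -0.54 to 0.40), Trpv4 by -0.06 (95% interval -0.53 to 0.41) and Trpv2 by 0.30 (95% interval -0.25 to 0.85). These intervals, which were taken without D12, leave out a 2-fold difference. With D12 the differences were -0.31 for Trpa1 (SE 0.25), 0.15 for Trpv4 (SE 0.25) and 0.49 for Trpv2 (SE 0.26). Intervals with D12 are not given, so the exclusion of 2-fold applies only without that rat. For Trpv1 the difference was -0.30, with an interval of -1.23 to 0.62 that includes a 2-fold fall, and -0.77 with D12 (SE 0.50). Group D lay on the other slide, so these values compare slides as well as groups.

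Markers of other cell types moved with the TRP channels in single rats. The mean log2 signal of 6 T cell markers, relative to the mean of Group C, was -0.77, 2.16, -1.05 and -0.33 in rats C1 to C4. It was 2.07, -1.22, 1.46 and 1.52 in rats M5 to M8. It was -0.86, -0.05, -0.22 and 3.13 in rats D9 to D12. C2 and D12 were thus high, and M6 was low. The 2 B cell markers measured gave the same picture, with 3.25 in C2, -1.01 in M6 and 4.54 in D12. The 11 colon epithelium markers stood at 0.28, -0.77, 0.41 and 0.08 in rats C1 to C4, at -0.64, 0.12, -0.90 and -0.57 in M5 to M8, and at 0.42, 0.49, -0.07 and -1.06 in D9 to D12. Of these 11 markers, 9 had lower means in Group M than in Group C and 9 had higher means in Group D than in Group M. The group means of Trpa1, Trpv1, Trpv3, Trpv6, Trpm5 and Trpm7 differed in the same directions, and those of Trpv2 and Trpv4 in the opposite ones.

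Trpv1 was higher in M6 than in every other rat of Group M, lowest of Group C in C2, and lowest of all 12 rats in D12. Trpv6 was also highest of Group M in M6 and lowest of all in D12, while C2, at 0.81, lay within Group C. Rat M6 held the lowest Trpv2 and Trpv4 of Group M, and for these genes and Trpa1 it lay outside the range of Group C. Rat C2 held the lowest Trpa1 and the highest Trpv2 and Trpv4 of Group C, and lay outside the range of Group M for each. The mean of the 5 enteric glia markers measured ran from -0.33 to 0.22 in Group C and from 0.20 to 0.88 in Group M. It ran from -0.47 to -0.31 in rats D9 to D11, with 0.79 in D12. Of these 5 markers, 3 had higher and 2 lower means in Group M than in Group C. In Group D vs Group M, 2 were higher and 3 lower. Gfap, 1 of the 5, was well above background on 7 of 12 arrays. The 5 skeletal muscle markers measured ran from -0.28 to 0.36 in Group C and from -0.10 to 1.04 in Group M. That mean leaves out Myh1 and Myh2, which were well above background on 2 and 3 of 12 arrays. Of all 7 skeletal muscle markers, 5 had higher and 2 lower means in Group M than in Group C. The part of these cell types in the TRP channel differences was not tested.

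Over the 12 arrays, Trpv4 followed the mean of the enteric glia markers most closely of 15 marker lists (r = 0.88, and 0.82 within groups). The single markers of that list differed in direction between groups, as given above. Trpv2 followed the mean of the 5 skeletal muscle markers measured most closely over these arrays (r = 0.89). Within groups its r was 0.87 with the skeletal muscle, macrophage and T cell markers, 0.82 with the B cell markers and -0.87 with the colon epithelium markers. Trpv1 ran against the T cell markers (r = -0.85) and with the colon epithelium markers (r = 0.83). Trpm5 stood at r = -0.78 with the enteric glia markers, its closest list, at -0.66 with the macrophage and -0.65 with the B cell markers, and at 0.65 with the 8 tuft cell markers measured. These arrays share slides and tissue composition, and the correlations are descriptions.

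The 11 enteric neuron markers measured ran from -0.11 to 0.25 in Group M and from 0.11 to 0.18 in rats D9 to D11. The 8 enterochromaffin cell markers ran from -0.02 to 0.32 in Group M. The 10 macrophage markers ran from -0.19 to 0.26 in Group C, from -0.11 to 0.32 in Group M and from -0.39 to -0.22 in rats D9 to D11, with 0.21 in D12. In Group D vs Group M, 9 of these 10 were lower in the mean, 8 of them at an unadjusted p of 0.05 by limma (21.6% of all probes). Against Group C all 10 were lower in the mean, 4 of them at that p (5.99% of all probes). In Group M, smooth muscle markers ran from -0.09 to 0.39, fibroblast markers from -0.13 to 0.27, endothelium markers from -0.19 to 0.06, and adipose markers from -0.87 to 0.37 against -0.77 to 1.02 in Group C. Of 9 squamous epithelium markers, Dsg3, Dsc3, Krt10 and Ivl were not well above background in any rat, and Krt1 was in 1. By contrast, Krt5, Krt14 and Krt15 were well above background in all 12 rats and Lor in 11. The mean of these last 4 ran from -0.03 to 0.01 in Group C and from -0.12 to 0.58 in Group M, with the highest value in M7. Mesothelium markers ran from -0.20 to 0.25 in Group C, from -1.09 to -0.10 in Group M, and from -1.57 to -0.16 in rats D9 to D11.

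**Figure D3:**
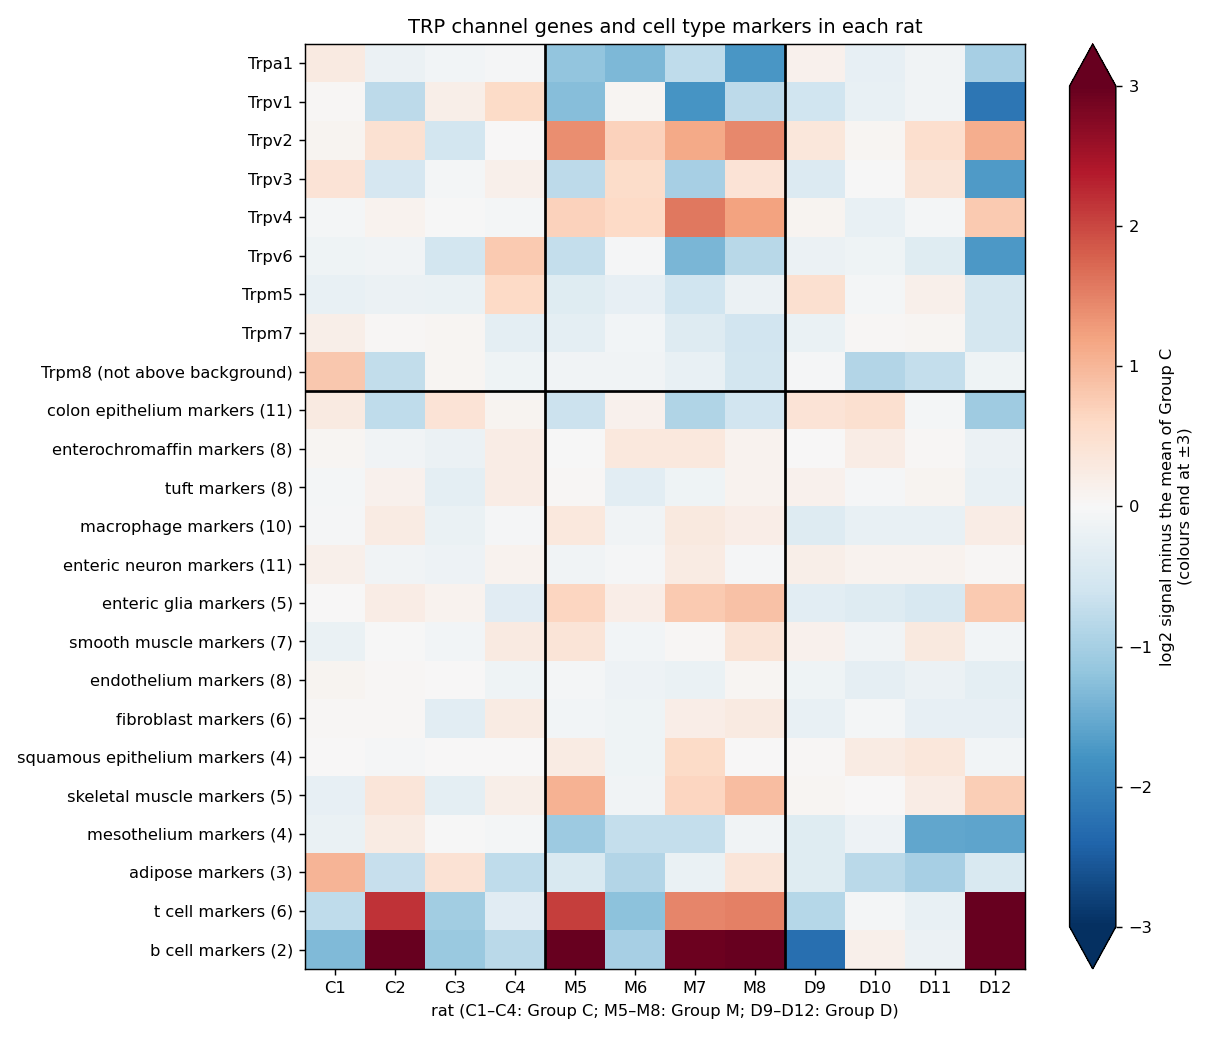
Log2 signal minus the mean of Group C (colour, ending at ±3) of the TRP channel genes and of cell type marker lists (rows, with the number of markers measured) in each rat (columns, Groups C, M and D). The T and B cell lists are high in C2, M5, M7, M8 and D12, whereas Trpa1 is low and Trpv4 high in all 4 rats of Group M and in D12.

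Among themselves, the channels were correlated over the 12 rats. Trpv2 followed Trpv4 (r = 0.82), and both ran against Trpa1 (r = -0.81 and -0.78). Trpv1 followed Trpv6 (r = 0.88) and Trpv3 (r = 0.86). With the group means removed, Trpv1 and Trpv3 still followed each other (r = 0.92), whereas Trpa1 and Trpv4 stood at r = -0.30.

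Among 20305 probes well above background on all arrays, 12546 carried a gene symbol of RefSeq, and of these the ones most like Trpa1 were Lrrc4c (r = 0.91), a synaptic adhesion molecule, Il1rap (r = 0.89), the accessory protein of the interleukin-1 receptor, and Eml1 (r = 0.89). With the group means removed, Lrrc4c, Il1rap and Eml1 stood at r = 0.66, 0.75 and 0.58 with Trpa1. The probes most like Trpv4 were Acsl4, Gtf2f2 and Zw10 (r = 0.97 each). Those most like Trpv2 were Plagl1 (r = 0.95), Arsj (r = 0.95) and Pim1 (r = 0.95). Ift52, a protein of intraflagellar transport, was most like Trpv1 (r = 0.99), followed by Slc10a5 (r = 0.98) and Slc39a11 (r = 0.97). Trpv6 was most like Zfand1 (r = 0.97), Trpv3 like Dst (r = 0.93), Trpm5 like Ltbp3 (r = 0.93) and Trpm7 like Flvcr2 (r = 0.92).

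Of 17 further family genes, 11 were measured well above background throughout at least 1 group, and Trpc5, Trpc7, Trpv5 and Pkd2l1 on no array. By limma and by the methods' criterion, 0 of the 17 passed in either comparison with Group M. At an unadjusted p of 0.05 by limma, 1 was higher (Mcoln3, 0.43) and 2 were lower in Group M vs Group C, which is 3 of 17 against 22.7% of all probes. The latter were Trpm3 (-1.70, well above background on 5 of 12 arrays) and Trpm4 (-0.58). These 3 genes were named after their values were seen. In Group D vs Group M, 3 were higher and 2 lower at that p, against 21.6% of all probes. The median difference was -0.07, beside -0.01 over all probes, for Group M against Group C.

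Among 26 regulators of TRP channels, 3 passed the methods' criterion between Groups M and C, against 2.33% of all probes, and all 3 were higher in Group M. These were Bdkrb1, the inducible bradykinin receptor (3.38, SE 0.88), S100a10 (1.31, SE 0.33), which brings channels to the membrane, and Ptger2, a prostaglandin E2 receptor (1.05, SE 0.29). None of the 26 passed the adjusted threshold of limma, where these 3 had adjusted p from 0.100 to 0.109, and 6 were higher and 7 lower at an unadjusted p of 0.05, against 22.7% of all probes. Bdkrb1 was well above background in 1 of 4 rats of Group C, in all of Group M and in 2 of 4 rats of Group D, D12 counted. In Group D vs Group M, Bdkrb1 (-4.01, SE 0.95, and -2.92 with D12) was lower by the methods' criterion. Where its signal was near background, the size of a difference is not that of a measured level. The median difference of the list was -0.05 for Group M against Group C, and 0.10 for Group D against Group M. Each regulator was read by its brightest probe only. For Faah, which is in this list, the study reported another probe as lower in NMS than in healthy rats.

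The regulators include the phospholipase C enzymes Plcg1 and Plcb3, which act upstream of TRP channels. Plcg1 differed by -0.80 (adjusted p = 0.0756 by limma) and Plcb3 by -0.59 (adjusted p = 0.0974 by limma) between Groups M and C. Neither reached 2-fold. The groups did not overlap for either gene, which was also so for 9.25% of all probes. Both genes were singled out after their values were seen.

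Of 10 other mechanosensitive channel genes with a probe, 5 were well above background. By the methods' criterion, 1 of the 10 passed in Group D vs Group M, against 2.65% of all probes. This was the potassium channel Kcnk2, which was higher in Group D (1.29, SE 0.34, adjusted p = 0.0994 by limma). Kcnk2 stood at -3.89, -3.87 and -3.22 in rats D9 to D11. Rat D12, which is not in that difference, stood at -4.85, within the range of Group M (-5.41 to -4.10). Of 14 sensory neuron genes, 1 passed the methods' criterion in Group M vs Group C, against 2.33% of all probes. This was Calcb, which encodes a calcitonin gene-related peptide and was higher in Group M (1.08, SE 0.28, adjusted p = 0.105 by limma). Calcb stood at -0.93, -0.84 and -1.03 in M5, M7 and M8 and at -2.33 in M6, which lay within Group C. No gene of either list passed the adjusted threshold of limma, and 3 of each list passed an unadjusted p of 0.05 in Group M vs Group C, against 22.7% of all probes.

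**Figure D4:**
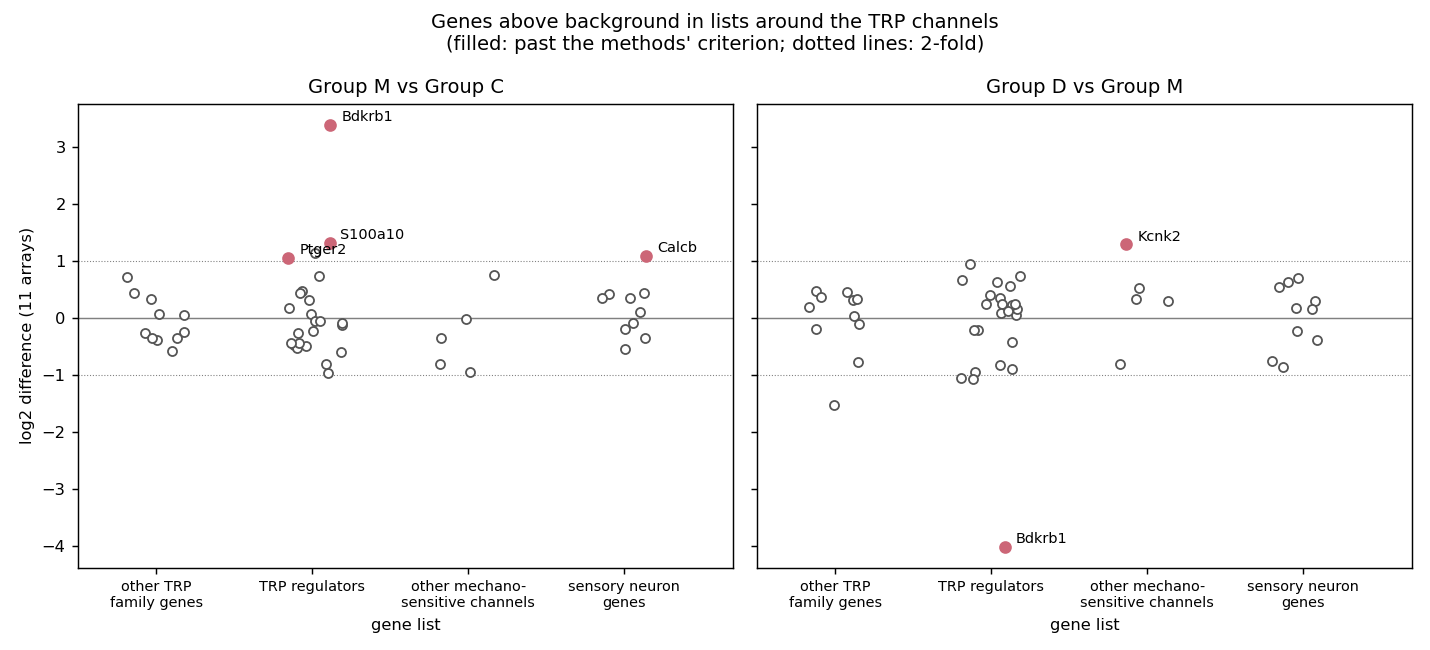
Log2 differences (y axis, 11 arrays) of the genes above background in 4 lists around the TRP channels (x axis), for Group M vs Group C (left) and Group D vs Group M (right). Filled points passed the methods' criterion and dotted lines mark 2-fold. The filled points are Bdkrb1, S100a10, Ptger2 and Calcb in the first panel and Bdkrb1 and Kcnk2 in the second, and Bdkrb1 was not well above background in most rats of Group C.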

How the data were processed

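RNA of 12 rats was labelled with Cy3 and hybridized to 1-colour Agilent arrays. Per the file headers, Feature Extraction 10.5.1.1 (protocol GE1_105_Jan09) made the deposited intensity values, linear, background-subtracted and without normalization across arrays. The authors' matrix of log2 values, whose columns share 1 distribution, was used as an alternative. Control spots (4259 per array) and outlier spots (277 to 521 per array) were left out. Spots of a probe were averaged, and the log2 of the 75th percentile was subtracted. A probe counted as well above background where at least 0.5 of its spots were so marked. Between 75.5% and 77.5% of spots were well above background per array and 0 were saturated, and replicate spots varied by a median of 3.90% to 6.09%. The signal takes the place of depth, and the number of arrays limits precision.

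The groups came from the labels. They were compared with limma 3.58.1 in R 4.3.3 (lmFit and eBayes, 3 groups in 1 model, 11 arrays) with Benjamini-Hochberg adjustment over the 30348 probes that had all values, at 2-fold and an adjusted p of 0.05. The procedure was tested on simulated data. P-values measure the spread between rats. The members, gene lists and marker lists were chosen with earlier results of these data known. Named genes are the members, list genes that passed limma or the methods' criterion, and up to 3 genes most correlated with each member. Other list genes were named after their values were seen. A gene is given by its brightest probe. Some genes are not reported here. Marker levels are means over markers well above background on every array of a group. Positions and names are those of the files, and the names of 9 genes matched RefSeq. Alternatives were all 12 arrays, normexp (offset 50), quantile normalization, median centring, the authors' matrix, outlier spots kept, a filter on dim probes, a replicate block, array weights, 2 groups per model, other criteria, and each rat left out. Software also included data.table, version 1.17.8, and matplotlib 3.10.9 under Python 3.11.15 for the figures.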

Additional observations from a re-analysis of the deposited data

Results flagged for a closer look

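Among 30 groups of 4 rats (10 probes in Groups C, M and D, with D12), 2 held a rat whose gap to the others was large against the range of the group, by Dixon's criterion. Chance alone would mark about 5% of such groups. For Trpv6, rat D12 of Group D stood at -0.81, while D9 to D11 stood at 0.74, 0.79 and 0.55. For Trpm5, rat C4 of Group C stood at -2.02, while C1 to C3 stood at -2.85, -2.79 and -2.81.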

How the results depend on the processing

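The count of TRP channel probes passing the threshold in Group M vs Group C was 1. It was 0 with all 12 arrays, normexp, quantile normalization, median centring, the authors' matrix, the replicate block or only 2 groups in the model, and 3 with array weights, the methods' criterion or an unadjusted p with 2-fold. Leaving out a rat gave 0 to 4, with 1 without M7, 4 without M6 (Trpa1, Trpv1, Trpv2 and Trpv4) and 0 without any other. In Group D vs Group M the count was 0. It became 2 with the filter on dim probes, the methods' criterion or an unadjusted p with 2-fold, and 3 with array weights, and ran from 0 to 3 when a rat was left out, with 3 without M6. In Group D vs Group C it was 0 throughout. Over all probes, Group M vs Group C gave 51 calls, 10 with all 12 arrays, 1 with the replicate block, 2106 with array weights and 1778 without M6. Deviations of same-numbered rats correlated from -0.72 to 0.58 over 12 pairs. These are too few and too mixed in sign to decide whether the replicate numbers pair the rats. The signs of Trpa1, Trpv1, Trpv2, Trpv4, Trpv6, Trpm5 and Trpm7 in Groups M vs C and D vs M held under every alternative. Of 567 alternative values of single probes, 25 changed sign, none of a difference that passed. Trpv3 turned in Group M vs Group C with array weights (0.0037) and without M7 (0.070, leave-one-out range -0.45 to 0.070). For Group D vs Group M it turned with all 12 arrays (-0.24), array weights (-0.13) and without M5, M7 or D11 (range -0.080 to 0.44). For Group D vs Group C, Trpv3 turned with quantile normalization (0.034), median centring (0.035), the authors' matrix (0.034), the replicate block (0.12) and without C1, C4 or D9 (range -0.21 to 0.19). There, Trpa1 turned with normexp (0.026), the authors' matrix (0.0076) and without C1 or D10 (range -0.18 to 0.020), and Trpm7 with normexp (0.074), median centring (0.011) and without C1 or D9 (range -0.13 to 0.047). Trpv4 turned with all 12 arrays (0.15) and without D10 (range -0.14 to 0.014), and Trpv6 without C4 (range -0.41 to 0.032). The causes were not tested. Signal over background limits Trpa1 in Group M and Trpm8 in every group.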
